A study of Rattus norvegicus with 6 samples.

Results

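Small nuclear and nucleolar RNAs were examined in lumbar dorsal root ganglia, the cell bodies of sensory nerves, as the 1324 transcript clusters of 68842 that the deposited annotation of the rat transcriptome array places in the class of small RNA. The tissue came from male Sprague-Dawley rats of 180 to 220 g. The 3 diabetic rats had received 1 intraperitoneal injection of streptozotocin at 65 mg/kg, a toxin that destroys pancreatic beta cells, and were kept only if their non-fasting glucose reached 16.7 mM a week later. The 3 control rats had received the citrate buffer vehicle. Ganglia L3 to L6 of both sides were pooled within each rat 8 weeks after induction, so each of the 6 arrays is 1 animal, and the model is one of chemically induced insulin deficiency. Values are log2 signals, a difference is the diabetic minus the control mean, and an SD covers the 3 arrays of a group.

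Small nuclear RNAs are the RNA core of the spliceosome, and most species serve the major spliceosome, while U11 and U12 belong to the minor one and U7 to the machinery that trims histone messages. Small nucleolar RNAs guide chemical modification of other RNAs: those of the C/D box class direct ribose methylation, those of the H/ACA box class pseudouridylation, and their relatives in Cajal bodies (scaRNAs) act on the small nuclear RNAs. Most mammalian snoRNAs are cut out of introns of a host transcript. Tandem C/D box arrays lie between Snurf and Ube3a, an imprinted interval read from the paternal chromosome mainly in neurons, and another imprinted array lies beside Meg3.

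The class is a set of placements more than a set of named genes. Of the 1324 clusters, 1313 are mouse transcripts placed on the rat assembly Rn6 and 11 on Rn5, by the source the annotation gives. A description that names the RNA is given for 35, and 1289 read only as a predicted mouse gene. The 35 comprise 9 spliceosomal clusters (5 of U6 and 1 each of U2, U5, U11 and U12), 5 of U7, 5 C/D box and 12 H/ACA box snoRNAs, 3 scaRNAs and the snoRNA AF357341. A set of 30 probes reads 1252 of the members, and no sequence of a member was at hand, so none is printed. Probes of a snoRNA also match any precursor or host transcript that still carries its sequence, and the deposited signal does not separate them.

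The array's own intron controls, probe sets in introns of transcribed genes, gave a reference for background. The 90th percentile of the mean signal of 1153 such controls was 6.01, and a cluster above it is called above background here. Only 124 members, or 9.37% of the class, were above it, a share close to the 10.1% of the intron controls that lie above their own 90th percentile of 6.01 by construction. Coding clusters passed it in 43.2% of cases and precursor microRNAs in 34.8%. The median signal of the class was 3.97 and the range 2.28 to 19.46. All 5 C/D box clusters, 6 of 12 H/ACA box clusters and AF357341 were above background, but only U11 and U12 of the 9 spliceosomal clusters were, and none of the 5 U7 and 3 scaRNA clusters. A statement on U2, U5, U6 or U7 therefore rests on signals within the background range.

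The 124 detected members fall into a scattered set and a few tandem runs. A run was defined as at least 5 members on the same strand with gaps of no more than 250 kb, which gave 4 runs with 70 members, of which 42 were above background, against 82 of the 1254 members outside runs (6.54%). The longest run, with 30 members, lay on the minus strand at chr1:116699082-116985943 (Rn6 in the annotation), beside Ube3a, and 19 of its members measured 78 bases. The second, with 24 members, lay on the minus strand at chr1:194848328-195072378 beside Snurf, 19 of them being 93 bases long, and it ended with C/D box 107. A run of 8 members, 4 of them of 78 bases, lay on the plus strand at chr1:121563657-121580364. The last, also of 8 members, lay on the plus strand at chr6:133823314-133837899, downstream of a cluster described as similar to Meg3.

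The first pair of runs are called the Ube3a run and the Snurf run below, and the one on chromosome 6 the Meg3 run. In RefSeq's gene table for the newer rat assembly GRCr8, 321 snoRNA genes stand between Ube3a and Snurf, 147 of them 76 to 80 bases long and 170 of them 91 to 95 bases long, so that the stretch that the deposited coordinates split lies in a single interval there. The table was used for this count and for a check of chromosomes given below, and no name from it was given to a member.

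The promoters of the transcripts that open both imprinted intervals are shown as the starts of the transcripts known to carry such tandem snoRNAs. They are RefSeq windows of GRCr8, 250 bases before to 50 after the annotated start, in the direction of transcription, with each CG, the dinucleotide at which imprinted promoters are methylated, in capitals (the motif CG reads the same on both strands). Snurf, at chr1:120339104-120339403 on the minus strand, held 7 CG, and Meg3, at chr6:134273806-134274105 on the plus strand, held 13.
Snurf: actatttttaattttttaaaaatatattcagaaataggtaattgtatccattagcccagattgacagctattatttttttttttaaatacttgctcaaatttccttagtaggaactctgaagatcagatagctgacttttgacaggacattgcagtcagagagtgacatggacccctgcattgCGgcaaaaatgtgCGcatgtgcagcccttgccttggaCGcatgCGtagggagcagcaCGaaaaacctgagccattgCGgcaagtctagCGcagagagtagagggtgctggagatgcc
Meg3: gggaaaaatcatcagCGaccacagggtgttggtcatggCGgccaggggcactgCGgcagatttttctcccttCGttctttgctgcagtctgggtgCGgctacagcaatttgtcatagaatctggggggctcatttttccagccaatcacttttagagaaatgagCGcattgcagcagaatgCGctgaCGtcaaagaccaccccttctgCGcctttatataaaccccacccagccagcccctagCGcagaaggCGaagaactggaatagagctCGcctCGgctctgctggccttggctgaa
Among 33469 promoter windows of the same length, 94.5% held at least 1 CG and the median window held 7. As many as in Snurf were held by 51.4% and as many as in Meg3 by 35.3%. Methylation was not measured.

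Diabetic and control ganglia were then compared in the whole class. No member passed the limma test at an adjusted p under 0.05, over all 68842 clusters (0.00581% of all clusters passed), the smallest adjusted p in the class being 0.50. At an unadjusted limma p under 0.05, 187 members were lower in diabetes (14.1% of the class, against 5.11% of all clusters) and 9 were higher (0.68%, against 2.73%). The mean was lower in 1060 of the 1324 members, or 80.1%, against 61.8% of all clusters. In other classes that share was 77.3% (ribosomal), 71.8% (precursor microRNA), 71.5% (noncoding), 50.5% (coding), 42.1% (pseudogene) and 28.6% (tRNA). The median difference was -0.13, beside -0.04 over all clusters. Diabetic and control arrays did not overlap in 208 members that were lower and 17 that were higher, or 15.7% and 1.28%, against 8.32% and 4.96% of all clusters. Most of these members were not above background, as were 1200 of the 1324. They made up 161 of the 187 and 186 of the 208 lower members, and 8 of the 9 and 12 of the 17 higher members. In such bulk tissue, fewer cells of a type and less RNA per cell cannot be told apart.

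The medians of the arrays differed as well. The median over all clusters ranged from 4.01 to 4.15 in the control arrays and from 3.95 to 4.05 in the diabetic arrays, and centring each array on its median moved every difference up by the same amount, the median over all clusters going from -0.04 to 0.03. After centring, 136 members were lower at an unadjusted limma p under 0.05 (10.3%, against 2.79% of all clusters) and 37 were higher (2.79%, against 5.38%). The median of the class became -0.06 and its share of lower means 63.9%, against 40.8% of all clusters. The direction of the class held on either scale, with a smaller size after centring. The array medians lie within the background range, since only 25.6% of all clusters were above background. Clusters above background did not share the downward offset. Their median difference was 0.04 as deposited and 0.11 after centring.

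Control replicate 3 had the highest median of the class, 4.19 against 4.03 and 3.96 in the other controls and 3.91, 3.97 and 3.85 in the diabetic arrays. Without it, 127 members were lower and 23 higher at an unadjusted limma p under 0.05 (3.53% and 2.49% of all clusters), and the median difference of the class was -0.09. The intron controls moved in the same direction. Their median difference was -0.10 over all 1153 and -0.24 over the 116 above background, and it was -0.05 and -0.12 without control replicate 3. Their median deviation from the control mean was 0.29 in control replicate 3, for those above background, and -0.36 in diabetic replicate 3. How much of the shift of the small RNA class they share was not tested.

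**Figure D1:**
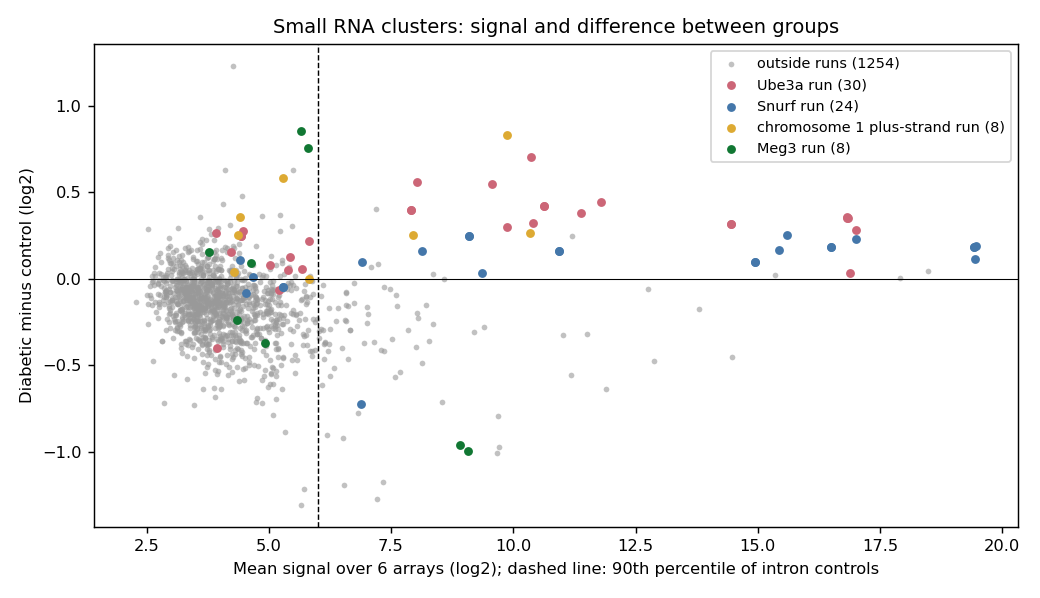
Each point is 1 of the 1324 small RNA clusters, with its mean log2 signal over 6 arrays on the x axis and the diabetic minus control difference (log2) on the y axis; colours mark the 4 runs, and the dashed line the background level of 6.01. Most members lie left of the line and slightly below 0, the bright members of the Ube3a and Snurf runs lie above 0, and most bright members outside runs lie below it.

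The detected members separated by location. Of the 82 outside runs, the mean was lower in diabetes in 73 and higher in 9, with a median difference of -0.30 and the middle 50% of them from -0.46 to -0.15. Of the 42 within runs, the mean was higher in 39 and lower in 3, with a median of 0.25. After centring of the arrays the medians were -0.22 and 0.32. The 39 higher members hold 31 distinct measurements, and diabetic replicate 2 was the highest array in most of them. Over all clusters above background, 10135 of 17604 were higher in mean. At an unadjusted limma p under 0.05, 23 of the 82 were lower (4.39% of all clusters above background). Without control replicate 3, the median of the 82 was -0.19, 65 were lower in mean, and 13 were lower at that p (3.25%). Groups of arrays did not overlap in 19 of the 82 members outside runs, all lower, while 5.45% of all clusters above background had no overlap and were lower in diabetes.

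Members outside runs were set beside other classes of like signal, as a description. Between background and a signal of 8, the median difference was -0.30 over 55 such members, -0.27 over 71 intron controls, -0.18 over 200 precursor microRNAs, -0.03 over 541 noncoding clusters and 0.07 over 4436 coding clusters. Between signals of 8 and 10 it was -0.31 over 15 members, -0.24 over 25 intron controls and 0.06 over 3066 coding clusters. As deposited, small RNAs outside runs lay near the intron controls and below the coding clusters in both bins. Without control replicate 3, the lower bin gave -0.22 for members, -0.07 for intron controls and 0.06 for coding clusters, and the bin from 8 to 10 gave -0.20, -0.13 and 0.05. Above 10 the median was -0.25 over 12 members, and it became 0.04 without control replicate 3.

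**Figure D2:**
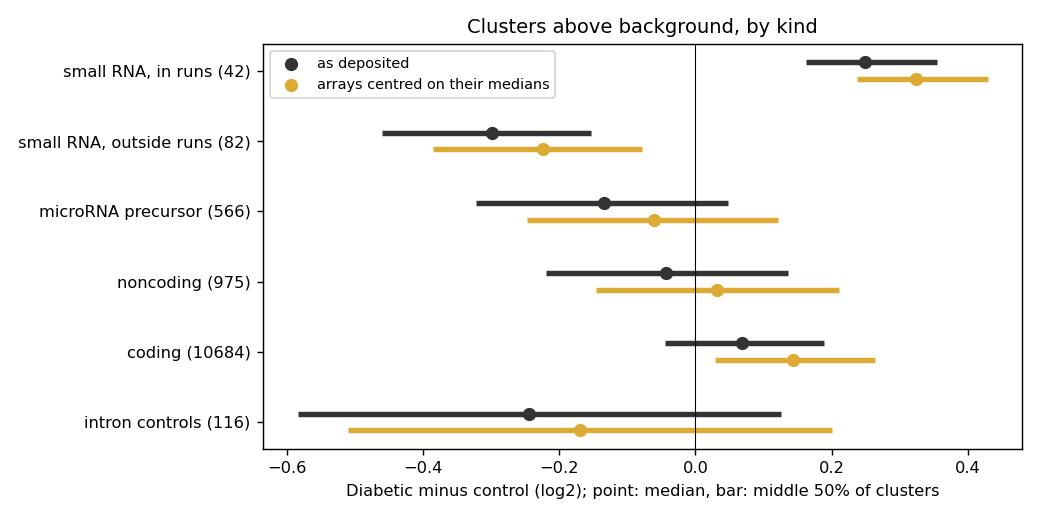
For clusters above background, points give the median and bars the middle 50% of the diabetic minus control differences (log2, x axis) by kind (y axis, number of clusters in parentheses), in black as deposited and in yellow after centring each array on its median. Small RNAs outside runs and intron controls have medians below 0 on both scales, and small RNAs within runs a median above 0.

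Outside the runs the medians were close to each other by position in a gene. Only clusters classed as coding, noncoding or multiple complex, and spanning at most 2500 kb, were considered as containing a member. The median difference was -0.30 over 42 detected members outside any such cluster. It was -0.32 over 21 on the opposite strand of one and -0.30 over 19 inside one on the same strand. Without control replicate 3 these medians were -0.22, -0.15 and -0.16. For those 19, the host transcripts had a median difference of 0.03, 8 of the hosts being lower, and 15 of the members lay below their host. Hosts rest on the deposited coordinates alone. Snora44, placed there within Itga2, is listed on another chromosome in RefSeq's GRCr8 table. By length, the 40 detected members of 121 to 150 bases, the size range of most H/ACA box snoRNAs, had a median of -0.29, and 37 were lower, while the 10 of 61 to 100 bases had a median of -0.27. The 9 detected members of 60 bases or fewer had a median of -0.90, 7 of them being lower, which became -0.32 without control replicate 3.

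Of the named C/D box RNAs, C/D box 107 differed most by p. Its signals were 7.08, 7.20 and 7.46 in the control rats and 6.28, 6.73 and 6.56 in the diabetic rats, so every diabetic array was below every control array. The difference was -0.72 (SE 0.15), which did not pass (limma adjusted p = 0.53), and it was -0.65 after centring and -0.62 without control replicate 3. The cluster lies at chr1:195072307-195072378 on the minus strand, at the Snurf end of the Snurf run. The nearest cluster on the same strand, bleyglu, on the side of Snurf, differed by -0.29 with overlapping arrays (limma adjusted p = 0.65), or -0.21 after centring. On the other side, the noncoding transcript merflu read 8.83, 8.99 and 9.29 in controls and 8.27, 8.65 and 8.20 in diabetic rats. Its difference was -0.66 (limma adjusted p = 0.53), and LOC102547100 beyond it differed by -0.54 (limma adjusted p = 0.60). Snurf itself differed by 0.10 (SE 0.14, limma adjusted p = 0.84).

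The other C/D box clusters overlapped between the groups. Snord33, whose human counterpart sits in an intron of a ribosomal protein gene, read 18.45, 18.23 and 18.72 in controls and 18.54, 18.52 and 18.47 in diabetic rats, a difference of 0.04 (SE 0.14). Snord14e differed by -0.64 (SE 0.41), with control replicate 3 at 13.03 and the other controls at 11.72 and 11.86, and by -0.22 without that array. C/D box 13, or U13, which takes part in processing of the small subunit's ribosomal RNA, differed by -0.32, and by 0.11 without control replicate 3, where it read 12.53. Snord22 differed by -0.18 (SE 0.21). The limma adjusted p of these 4 ran from 0.70 to 0.94.

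Among H/ACA box RNAs, which guide pseudouridylation, Snora17 had the smallest p. It read 9.74, 9.99 and 10.79 in controls and 9.58, 8.95 and 8.96 in diabetic rats, without overlap. The difference was -1.01 (SE 0.28, limma adjusted p = 0.54) and -0.70 without control replicate 3. H/ACA box 16A, the brightest by signal of its class, read 18.06, 17.51 and 18.17 in controls and 17.91, 17.89 and 17.96 in diabetic rats, which differed by 0.01 (SE 0.17). Snora44 differed by 0.25, Snora15 by 0.02, SNORA7 by -0.45 and Snora21 by -0.54, all with overlapping arrays and limma adjusted p of 0.65 to 0.98. Without control replicate 3, SNORA7 differed by -0.15 and Snora21 by -0.25. The 6 H/ACA box clusters that were not above background ranged in signal from 2.93 to 5.07.

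U11, which recognises the 5′ splice site of minor introns, was lower in every diabetic rat than in any control rat. Its cluster lies at chr5:150455815-150455949 on the minus strand. The signals were 11.35, 11.33 and 11.72 in controls and 10.81, 10.90 and 11.03 in diabetic rats, a difference of -0.56 (SE 0.15, limma adjusted p = 0.53), -0.48 after centring and -0.43 without control replicate 3. U12, its partner at the branch site, read 6.81, 6.41 and 7.21 against 6.58, 6.78 and 6.18, with overlap, and differed by -0.30 (SE 0.22, limma adjusted p = 0.73), and by -0.10 without control replicate 3. Its 6 values were identical to those of ENSMUSG00000065057 on chromosome 8, so these probe sets count as a single measurement.

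The major spliceosomal clusters were at background. Rnu2-10 (U2) had a mean signal of 4.03 and differed by -0.19, Rnu5g (U5) of 3.63 and -0.39, and the brightest of 5 U6 clusters, ENSMUSG00000098788, of 3.97 and -0.25. The 5 U6 clusters had a median difference of -0.25, and 4 were lower. Of the 5 U7 clusters the brightest, ENSMUSG00000098444, reached 5.13 and differed by -0.29, and by 0.16 without control replicate 3, and the U7 cluster of smallest p, Rnu7, rests on 1 probe with a mean of 2.85 and a difference of -0.72 (limma adjusted p = 0.59). The 3 scaRNA clusters had a median difference of -0.14, all 3 being lower in mean.

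**Figure D3:**
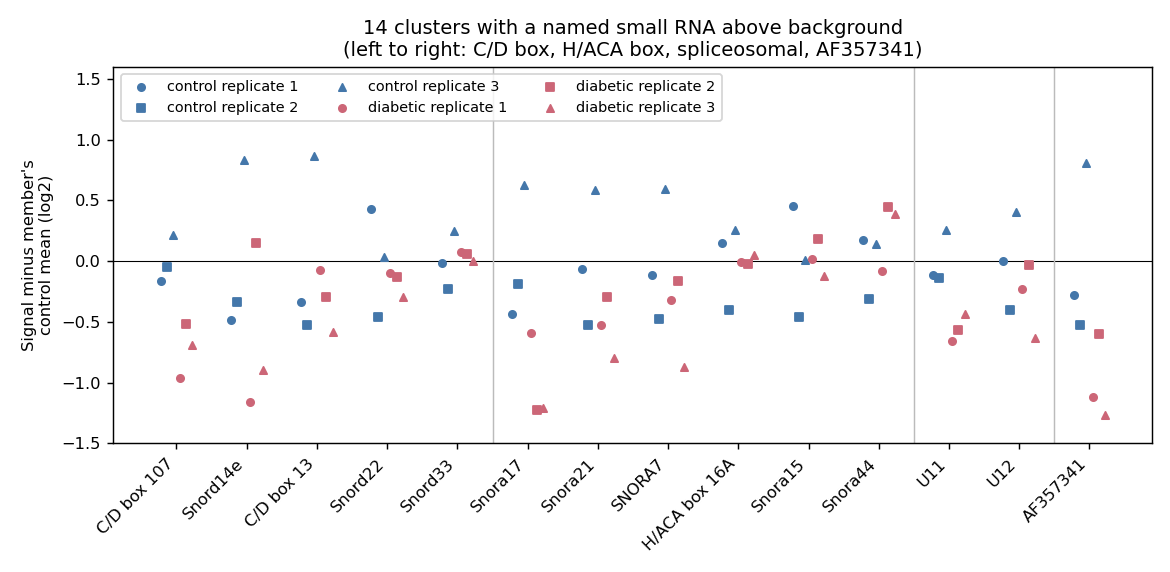
The 14 named small RNA clusters above background (x axis), each array's signal minus that cluster's control mean (log2, y axis), blue for control and red for diabetic rats, the marker giving the replicate. C/D box 107, Snora17, U11 and AF357341 have every diabetic array below every control array, while control replicate 3 stands highest among controls for most of the 14.

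Of the members known only as predicted genes, the lower ones of smallest p were scattered over chromosomes. ENSMUSG00000064410, at chr13:44585888-44586016 on the plus strand within Rab3gap1, read 7.15, 6.76 and 7.06 in controls and 6.10, 6.25 and 5.85 in diabetic rats. Its difference of -0.92 (SE 0.15) had a limma adjusted p of 0.50, was -0.89 without control replicate 3, and stood beside a difference of -0.03 for Rab3gap1, which encodes a regulator of Rab GTPases. ENSMUSG00000088438 (-0.78), ENSMUSG00000077368 (-0.79) and ENSMUSG00000089027 (-0.56) on chromosome 2 and ENSMUSG00000077303 (-0.49) on chromosome 10 also had no overlap between groups, with limma adjusted p of 0.53 to 0.55. These 5 clusters measure 129 to 136 bases. For ENSMUSG00000089027, the mean was 6.54 in controls and 5.97 in diabetic rats, the latter below the background level of 6.01. Its place above background (mean signal 6.26) therefore rests on the control arrays, and its diabetic signal lies within the background range. ENSMUSG00000094527 on chromosome 4, with a difference of -0.79 and the smallest p of the class (limma adjusted p = 0.50), had a mean signal of 5.09, which is not above background.

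The Ube3a run went the other way. Of its 18 members above background the mean was higher in diabetes in 18, with differences of 0.03 to 0.70 and a median of 0.37. The arrays of the groups overlapped in each of the 18, and at an unadjusted limma p under 0.05 none was higher (6.78% of all clusters above background were). After centring the median was 0.44, the arrays did not overlap in 3 (14.8% of all clusters above background), and 6 were higher at an unadjusted limma p under 0.05 (9.92%). Those 6 include ENSMUSG00000094548 and ENSMUSG00000096090, whose values are identical. ENSMUSG00000095342, of the 10 brightest members by signal, read 16.69, 16.75 and 17.16 in controls and 17.14, 17.47 and 16.83 in diabetic rats, a difference of 0.28 (SE 0.19, limma adjusted p = 0.72). ENSMUSG00000093981 read 9.12, 9.34 and 9.44 against 9.67, 10.44 and 9.43, a difference of 0.55 (SE 0.24, limma adjusted p = 0.64). ENSMUSG00000094508 and ENSMUSG00000095828, also among the 10 brightest, differed by 0.35 and 0.03, the latter by 0.32 without control replicate 3. Diabetic replicate 2 was the highest of the 6 arrays in 17 of the 18 members.

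Most of the difference lay in that rat. The median deviation of the 18 members from their control mean was 0.85 in diabetic replicate 2, 0.25 in replicate 1 and 0.00 in replicate 3, beside -0.19, -0.06 and 0.29 in the controls. Without diabetic replicate 2 the median difference was 0.13, with 17 of 18 still higher. Neighbouring transcripts on the same strand had their highest signal in the same rat. LOC102551177, which contains 11 members of the run, read 8.44, 8.90 and 8.34 in controls and 8.97, 9.61 and 8.64 in diabetic rats. Its difference was 0.51 (SE 0.25, limma adjusted p = 0.65). The transcripts moflu, LOC102551957 and LOC102551282 had mean signals of 5.54, 4.85 and 5.97, which are not above background. They differed by 0.30, 0.36 and 0.06 (limma adjusted p = 0.68, 0.65 and 0.92), the last by -0.01 without control replicate 3. Ube3a, a ubiquitin ligase gene on the opposite strand, differed by 0.02 (SE 0.13).

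The Snurf run held the brightest members of the class by signal, which is not an order of abundance between probe sets. ENSMUSG00000095060 read 19.43, 19.43 and 19.22 in controls and 19.58, 19.63 and 19.45 in diabetic rats, without overlap, a difference of 0.19 (SE 0.12, limma adjusted p = 0.69). ENSMUSG00000095734 differed by 0.12 and ENSMUSG00000094890 and ENSMUSG00000094069, whose values are identical, by 0.19, all at a mean near the array's upper end, where 70 clusters had a mean above 19. After quantile normalization ENSMUSG00000095060 differed by 0.03, ENSMUSG00000095734 by -0.03 and the identical pair by 0.06, and without control replicate 3 these were 0.12, 0.06 and 0.11. ENSMUSG00000094109 read 16.84, 16.91 and 16.93 against 17.10, 17.27 and 17.01, and ENSMUSG00000094923 read 15.42, 15.50 and 15.46 against 15.70, 15.91 and 15.54, differences of 0.23 and 0.26 with a limma adjusted p of 0.66 for each. Both were higher in every diabetic array than in any control array.

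Of the 19 members of the Snurf run above background, 18 were higher in mean, C/D box 107 being the exception, and the median difference was 0.17, or 0.24 after centring. Without overlap, 5 of the 19 were higher, and 9 after centring, beside 10.6% and 14.8% of all clusters above background. The 5 include the pair ENSMUSG00000094960 and ENSMUSG00000094150, whose values are identical. The 9 also include the identical pair ENSMUSG00000094890 and ENSMUSG00000094069. C/D box 107 had no overlap either and was lower. Diabetic replicate 2 was the highest array in 17 of the 19, and without it the median was 0.04, with 12 higher. The long noncoding transcripts that contain the run, apart from C/D box 107, differed by less than their SE. LOC102546798 read 13.13, 13.56 and 13.33 in controls and 13.15, 13.94 and 12.79 in diabetic rats. Its difference was -0.05 (SE 0.27), or 0.03 after centring. LOC102546878 differed by -0.18 (SE 0.26), or -0.11 after centring. Both were highest in diabetic replicate 2.

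**Figure D4:**
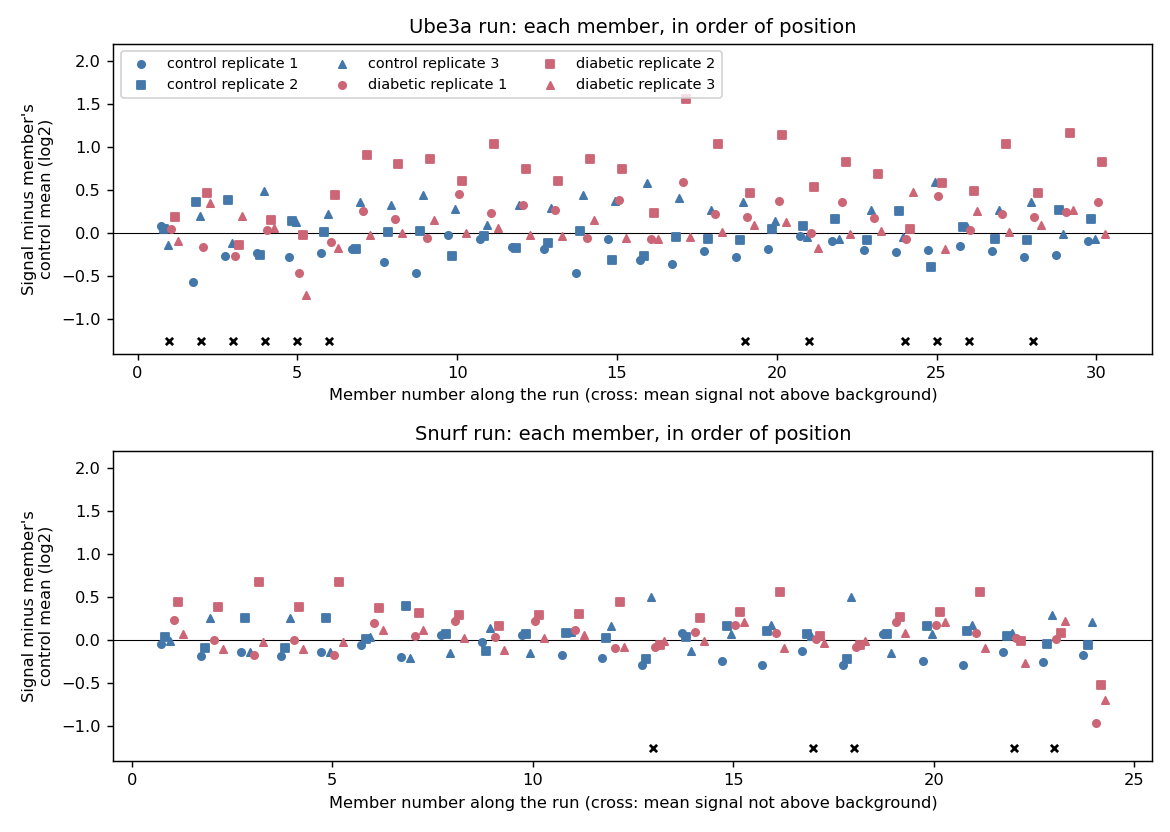
Members of the Ube3a run (30, upper panel) and of the Snurf run (24, lower panel) in order of position (x axis), with each array's signal minus the member's control mean (log2, y axis); blue is control, red diabetic, the marker gives the replicate and a cross marks members not above background. Diabetic replicate 2 stands highest for most members, and the last member of the lower panel, C/D box 107, lies below 0 in all 3 diabetic arrays.

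Members of a run are not independent. Of the 12 pairs of members with identical values on all 6 arrays, 10 lay within the Ube3a and Snurf runs, which leaves 15 distinct measurements among the 18 detected members of the Ube3a run and 14 among the 19 of the Snurf run. The plus-strand run on chromosome 1 had 3 detected members, all higher in mean, by a median of 0.26. ENSMUSG00000096324 in it read 9.34, 9.62 and 9.43 in controls and 10.12, 11.15 and 9.61 in diabetic rats, which overlap, and its difference of 0.83 (SE 0.34, limma adjusted p = 0.62) was the highest among the members above background. Without diabetic replicate 2 the median of the 3 was 0.02.

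The remaining higher members by the same rule were ENSMUSG00000096067 (0.56) and the identical ENSMUSG00000094548 and ENSMUSG00000096090 (0.40) in the Ube3a run, and, outside runs, ENSMUSG00000084421 within Lrch2 on chromosome X (0.40). The last ran from 6.55 to 7.42 in controls and from 7.28 to 7.57 in diabetic rats. All had overlapping arrays and limma adjusted p of 0.64 to 0.66.

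**Figure D5:**
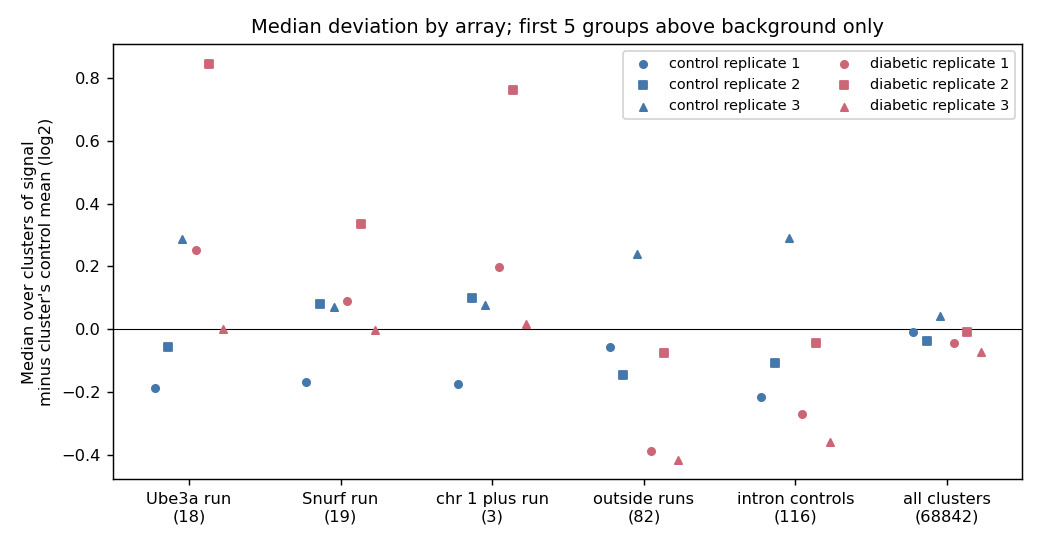
Median over clusters of the signal minus the cluster's control mean (log2, y axis) in each of 6 arrays, for clusters above background in 3 runs, small RNAs outside runs and intron controls, and for all clusters (x axis, number of clusters in parentheses). Diabetic replicate 2 stands at 0.85 in the Ube3a run, and control replicate 3 stands highest both in small RNAs outside runs (0.24) and in intron controls (0.29).

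The Meg3 run had 2 of its 8 members above background, both lower in mean in diabetes. Its snoRNA AF357341, at chr6:133825647-133825721, read 9.28, 9.04 and 10.37 in controls and 8.45, 8.96 and 8.30 in diabetic rats, without overlap, a difference of -0.99 (SE 0.33, limma adjusted p = 0.58) that was -0.59 without control replicate 3. ENSMUSG00000064720 followed it from array to array, 0.12 to 0.22 below it on each, and differed by -0.96. The other 6 members were not above background, and ENSMUSG00000064487 and ENSMUSG00000064545 among them had means that were higher by 0.76 and 0.85, with overlapping arrays. They read 7.86 and 7.66 in diabetic replicate 1, but 4.75 and 4.88 in replicate 2 and 5.91 and 5.70 in replicate 3. Without control replicate 3 their differences were 0.30 and 0.48. The upstream transcript similar to Meg3, RGD1566401, differed by -0.22 (SE 0.25, limma adjusted p = 0.81).

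The proteins that bind and build these RNAs were compared with the same fit, and none of their genes passed at an adjusted p of 0.05 in either direction. For the 5 box C/D proteins, which include the methyltransferase fibrillarin (Fbl, -0.09), the median difference was -0.07, and the smallest p were those of Snu13 (-0.19, and 0.0016 without control replicate 3) and Nop58 (0.11). For the 6 box H/ACA proteins, which include the pseudouridine synthase Dkc1 (0.13), the median was 0.13, with Shq1 at 0.19 and Gar1 at -0.11. Shq1 and Gar1 had mean signals of 4.57 and 5.32, which are not above background. Of 26 measured snRNP proteins, 20 were higher in mean, with a median of 0.07, and Snrpd1 (0.39) and Snrpb (0.30), both core ring proteins, had limma adjusted p of 0.62 and 0.64.

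Of 30 genes for snRNA transcription, processing and assembly, 24 were higher in mean, with a median of 0.09, Ints8 at -0.29 and Ints9 at 0.25 having the smallest p. Of 21 partners of 7SK, Y, signal recognition particle, RNase P and MRP RNAs, 14 were higher. Rpp25 differed by 0.44 at a mean signal of 3.99, which is not above background. Srp68 differed by 0.34, and by 0.17 without control replicate 3. Of 41 measured snoRNA host genes, 33 were higher in mean, with a median of 0.11. The noncoding host Snhg11 differed by -0.59 and the ribosomal protein gene Rpl13 by 0.50, with limma adjusted p of 0.53 and 0.56. Beside these, the median of all clusters above background was 0.04. Coding clusters above background had a median of 0.07, and 7060 of 10684 were higher in mean. Of all coding clusters, 12247 of 24753 were higher in mean.

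Cell type markers were read on the same arrays. Of 7 measured sensory neuron markers 5 were higher in mean, and their summed level ran from 19.11 to 19.44 in controls and 19.20 to 19.38 in diabetic rats, with all 7 above background. The 3 satellite glia markers ran from 13.24 to 14.56 and 12.68 to 13.47, and the 4 Schwann cell markers from 18.59 to 18.88 and 18.05 to 18.58, all 7 being lower in mean and none past the test. The 3 blood markers ran from 12.18 to 12.97 and 11.45 to 13.14, the 3 fibroblast markers from 14.98 to 16.22 and 15.95 to 16.07, with Dcn the brightest, and the 3 macrophage markers from 8.65 to 9.57 and 9.18 to 9.77. Within the fibroblast list, the collagen gene Col1a1 read 9.45, 9.15 and 9.80 in controls and 6.58, 8.13 and 7.62 in diabetic rats, without overlap, a difference of -2.02 (limma adjusted p = 0.53), while Dcn and Pdgfra differed by 0.25 and 0.19. Of the markers of spinal cord glia, muscle and fat, 1 of 5, 1 of 5 and 0 of 3 were above background. The 5 muscle markers ran from 7.60 to 9.44 in controls and 7.71 to 7.90 in diabetic rats. All 5 were highest in control replicate 2, where Acta1 read 9.06 against 6.86 in each of the other controls. The part of cell makeup in the small RNA differences was not tested.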

How the data were processed

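RNA of 3 diabetic and 3 control rats was measured on 1 array each. The deposited values are log2 signals, gene-level SST-RMA per the file headers (RMA, with no version, per the submitters' processing notes); the genome build is not given in the sources used here beyond the Rn6 and Rn5 in the annotation's source names. The series matrix held the same values (0 cells differing). All 423480 detection calls read absent and were not used, so background was set from intron controls. From the 70580 probe sets, 1738 controls were left out. Diabetic and control arrays were compared with limma 3.58.1 in R 4.3.3 (group term, eBayes with intensity trend, Benjamini-Hochberg over 68842 clusters), tested on simulated data. The number of arrays limits the precision, and differences of dim clusters can be compressed. Replicate numbers did not pair the animals: deviations of the same number correlated at 0.04, -0.12 and -0.13. Named were the 10 brightest members, the 8 of smallest p above background in each direction, the brightest and smallest-p member of each subclass with 5 or more members, the brightest of each RNA species, and, of each gene list, those past the test or else the 2 of smallest p; all other members with a named RNA and members of runs were added after their values were seen. Members and lists were chosen with earlier results of these data known. The alternatives were array centring, quantile normalization, a background filter, limma settings, the replicate block and leaving out arrays.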

Additional observations from a re-analysis of the deposited data

How the results depend on the processing

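No member passed an adjusted limma p of 0.05 under any of 14 alternatives, where 9 were higher and 187 lower at an unadjusted p under 0.05 in the fit as reported. Higher members numbered 37 after median centring, 31 after quantile normalization, 1 when only clusters above background were tested, where 24 were lower, and 15 with the replicate block, where 191 were lower; the numbers are not a pairing. Leaving out 1 array gave 7 to 23 higher and 107 to 279 lower members, the extremes being control replicates 1 and 3 for higher and diabetic replicate 3 and control replicate 2 for lower, with 21 higher without diabetic replicate 3. The combination of centring and no control replicate 3, chosen after seeing the data, gave 47 and 105. The median of the class stayed below 0 in all, from -0.17 to -0.05. Signs turned in 13 of 456 values of the 33 named members. After quantile normalization ENSMUSG00000095734 gave -0.035 and ENSMUSG00000065097 gave -0.0006, and the latter gave -0.0034 with array weights. With 1 array left out, ENSMUSG00000065097 ranged from -0.19 to 0.13 (-0.013 without diabetic replicate 3), Snord33 from -0.072 to 0.17, ENSMUSG00000095828 from -0.12 to 0.32, ENSMUSG00000098444 from -0.66 to 0.16 and C/D box 13 from -0.58 to 0.11, the higher end being without control replicate 3 each time. With centring added to that omission, ENSMUSG00000098444 gave 0.20, C/D box 13 gave 0.15, and the medians of U7 and of the Meg3 run became 0.024 and 0.0090. The cause was not tested. Most members lie within background, which limits what their differences show.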

Other observations

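Placements in the deposited annotation can be set against the RefSeq gene of the same name in the GRCr8 table, by chromosome only. Of the 35 members with a named RNA, 13 matched a gene there. All 5 of those placed through Rn5 (Snora20, Snora44, Snord22, Snord33 and Snora21) were listed on another chromosome. Of 8 placed through Rn6, 4 stood on the same chromosome (H/ACA box 30, C/D box 107, C/D box 13 and U12) and 4 on another. Host and neighbour values are therefore given above only by the deposited coordinates.

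The pair of members with identical values outside the runs, besides U12 and its copy on chromosome 8, was ENSMUSG00000093793 and ENSMUSG00000095119 on chromosome 5, with a mean signal of 3.59. Over the 1324 members, arrays correlated at 0.981 to 0.991 (Pearson, across clusters, which are not independent), and over all clusters at 0.993 to 0.997. The lowest values in both sets were those of control replicate 3 with a diabetic array.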
